A study of Mus musculus with 6 samples.

Results

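The 10 genes described here encode the proteins that bring cysteine into the cell and turn it into glutathione and back. They are Slc7a11, Cth, Cbs, Gclc, Gclm, Gss, Gsr, Chac1, Chac2 and the regulator Nfe2l2. They were chosen by symbol from this pathway, all 10 were found in the deposited table of 23951 genes, and all 10 were among the 12204 genes tested. Transcripts were measured by total RNA sequencing of haematopoietic stem cells (HSCs) from the livers of C57BL/6 mouse fetuses, in 3 knockout (KO) libraries labelled RISP knockout and 3 wild type (WT) libraries labelled RISP wild type. RISP, encoded by Uqcrfs1, is the Rieske iron-sulfur protein of respiratory complex III. The sources used here do not give the deleted part of the gene, the means of deletion or the age of the fetuses. They do not say whether libraries came from separate embryos either, so each p-value is set against a spread that may be technical.

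Glutathione is the main small thiol of the cell, a peptide of glutamate, cysteine and glycine that carries electrons to peroxides and is kept reduced with NADPH. Cysteine usually limits its synthesis, and it comes from outside as cystine or from methionine through the transsulfuration pathway. The cystine carrier and the last transsulfuration enzyme are known targets of ATF4, the transcription factor of the integrated stress response, while the carrier and the synthesis enzymes are also known targets of NRF2, the transcription factor encoded by Nfe2l2.

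The libraries held 12020128 to 14590844 counts in KO and 10191354 to 13189329 counts in WT. The targeted gene matched the labels in all 6 libraries, with 60, 51 and 39 counts of Uqcrfs1 in KO replicates 1 to 3 and 771, 1320 and 791 counts in WT replicates 1 to 3. All 12 stem and progenitor markers examined, among them Kit and Cd34, were detected, and their summed level was 2019 to 2200 CPM (counts scaled to a common library size) in KO and 2489 to 2897 CPM in WT. The summed level of 12 macrophage markers was 35.3 to 71.2 CPM in KO and 75.5 to 899 CPM in WT, where WT replicate 3 stood apart at 899 CPM. Marker sums were also lower in KO for granulocytes (228 to 261 CPM in KO and 401 to 559 CPM in WT), megakaryocytes (296 to 333 CPM in KO and 425 to 499 CPM in WT) and endothelium (257 to 304 CPM in KO and 325 to 1157 CPM in WT). The 10 mast cell and basophil markers alone summed higher, to 21.1, 21.6 and 57.4 CPM in KO and 7.02, 11.7 and 8.48 CPM in WT, with Fcer1a and Tpsab1 at 0 in all libraries. Their part in the rises described here was not tested. In such bulk libraries, fewer cells of a type and less RNA per cell cannot be told apart.

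Promoter sequence was taken from RefSeq (build GRCm38.p6) for 7 of the 10 genes. Cth, Gclc and Gsr had no entry. The letters TGATGNAA, the core of the C/EBP-ATF response element that ATF4 is known to bind, were searched on both strands from 250 bases before to 50 bases after each gene's start, together with TGACNNNGC, the core of the antioxidant response element known to be bound by NRF2. Of all 32851 promoter windows of this length, 3.97% held the first motif and 12.4% the second. Among the 7 genes, Slc7a11 and Chac1 held the first, and Gclm and Nfe2l2 the second. Slc7a11 held 2 matches in opposite orientation, TGATGCAA at -66 to -59 and TTGCATCA at -47 to -40 from its start, which do not overlap. Chac1 held TTGCATCA at -193 to -186. A match describes letters only and shows no binding. The 250 bases before the start are given here for Slc7a11 (chr3:50443614-50443863, minus strand) and Chac1 (chr2:119350992-119351241, plus strand), the genes with the first motif, for Chac2 (chr11:30986366-30986615, minus strand), the relative of Chac1 with neither, and for Gclm (chr3:122245307-122245556, plus strand), with the second. They run from 5′ to 3′ on the strand of the gene, and capitals mark a match to either motif.
Slc7a11: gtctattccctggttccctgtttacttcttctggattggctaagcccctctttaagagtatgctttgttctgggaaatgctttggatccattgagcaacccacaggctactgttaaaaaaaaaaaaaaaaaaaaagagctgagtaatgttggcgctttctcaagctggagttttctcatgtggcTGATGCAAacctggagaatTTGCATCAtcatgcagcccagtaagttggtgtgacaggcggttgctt
Chac1: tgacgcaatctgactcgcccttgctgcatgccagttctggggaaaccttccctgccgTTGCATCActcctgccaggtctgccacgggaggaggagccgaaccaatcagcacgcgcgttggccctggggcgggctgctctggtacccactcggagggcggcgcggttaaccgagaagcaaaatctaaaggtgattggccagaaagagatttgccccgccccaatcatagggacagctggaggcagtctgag
Chac2: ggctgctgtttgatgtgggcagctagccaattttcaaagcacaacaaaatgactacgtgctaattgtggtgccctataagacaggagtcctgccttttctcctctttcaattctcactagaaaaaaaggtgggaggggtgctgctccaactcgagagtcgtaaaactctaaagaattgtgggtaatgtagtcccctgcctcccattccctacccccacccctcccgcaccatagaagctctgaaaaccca
Gclm: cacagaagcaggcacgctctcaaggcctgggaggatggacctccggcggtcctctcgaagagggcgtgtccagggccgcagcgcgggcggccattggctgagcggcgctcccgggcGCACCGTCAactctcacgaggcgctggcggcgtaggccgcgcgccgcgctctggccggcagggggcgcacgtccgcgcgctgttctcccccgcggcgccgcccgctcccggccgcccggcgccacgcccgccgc

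In KO, transcripts of cystine import (Slc7a11), of the last transsulfuration step (Cth) and of the inducible glutathione-degrading enzyme (Chac1) were higher, while none of the genes for glutathione synthesis or reduction passed the test. Of the 10 genes, 3 rose and 0 fell at an adjusted p under 0.05 (edgeR quasi-likelihood test, Benjamini-Hochberg adjustment over all genes tested), where 6.41% of all genes tested were higher, 4.99% lower and 11.4% either. At an unadjusted p under 0.05, 3 were higher and 1, Gss, lower, and with DESeq2 2 were higher and 0 lower. Cth, Cbs and Chac1 reached the low-count filter only through their KO libraries, so Cth and Chac1 had to be higher in KO to be tested at all, and the count is a description. The KO and WT libraries did not overlap in 4 of the 10 genes, against 30.2% of all genes tested. In 3 of them every KO library lay above every WT library (15.7% of all genes), and in Gclm every one lay below (14.5%).

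**Figure D1:**
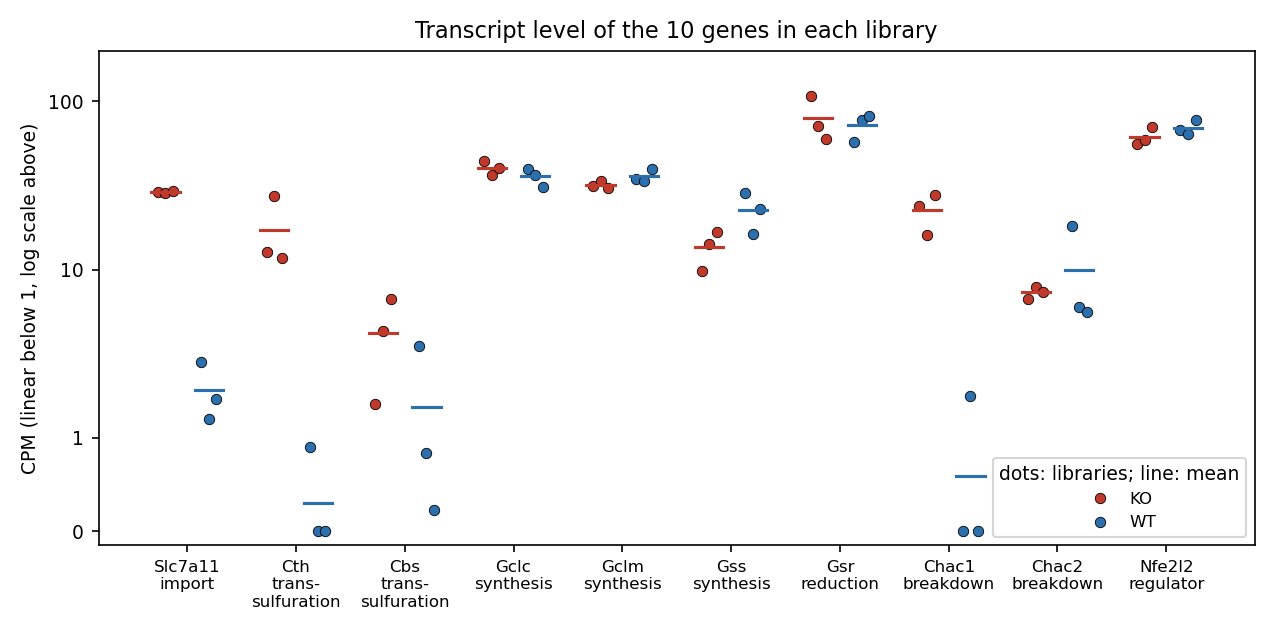
CPM of each gene (vertical axis, linear below 1 and logarithmic above) in the 3 KO and 3 WT libraries, one dot per library and a line at the mean. In Slc7a11, Cth and Chac1 every KO library lies above every WT library, and the synthesis genes Gclc and Gclm lie at 30.6 to 44.5 CPM in all 6 libraries.

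Slc7a11 encodes the light chain of the cystine-glutamate exchanger, which brings in cystine in return for glutamate. It had 400, 429 and 371 counts in KO replicates 1 to 3 and 28, 14 and 22 counts in WT replicates 1 to 3. Scaled to library size, these are 28.8, 28.6 and 29.3 CPM in KO and 2.81, 1.30 and 1.70 CPM in WT. The KO libraries lay within 1 CPM of each other, and the lowest of them was far above the highest WT library. The rise was 3.90 on the log2 scale with a standard error (SE) of 0.41 (edgeR, adjusted p = 2.88e-06), with a 95% interval of 3.04 to 4.76. Without any 1 library the log2 fold change was 3.69 to 4.25, with an adjusted p of at most 0.000107.

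Slc3a2, the heavy chain that carries this exchanger and several other amino acid transporters to the plasma membrane, was also higher. It stood at 255, 269 and 228 CPM in KO and at 94.9, 117 and 133 CPM in WT, with no overlap. Its log2 fold change was 1.12 (SE 0.13, edgeR adjusted p = 1.27e-05), smaller than that of Slc7a11. Per gene length, on the deposited RPKM scale, the ratio of Slc7a11 to Slc3a2 was 0.0579, 0.0510 and 0.0490 in KO replicates 1 to 3 and 0.0127, 0.00488 and 0.00562 in WT replicates 1 to 3. The light chain transcript thus remained far below that of the heavy chain in every library.

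Transsulfuration has a first enzyme, cystathionine beta-synthase (Cbs), which joins homocysteine and serine, and a last, cystathionine gamma-lyase (Cth), which releases cysteine. Cth had 177, 410 and 148 counts in KO, that is 12.8, 27.3 and 11.7 CPM, and 9, 0 and 0 counts in WT. All WT counts of Cth came from WT replicate 1, at 0.902 CPM. The log2 fold change was 5.89 (SE 1.00, edgeR adjusted p = 0.00193), with a 95% interval of 3.73 to 8.05. With all libraries the ratio of mean CPM, KO over WT, was 57.3. Without WT replicate 1 the remaining WT libraries had no counts. The mean in KO was then at least 136-fold higher than a floor of 3 counts over them, a bound for that set only. Without any other single library the log2 fold change was 5.26 to 6.10, with an adjusted p of at most 0.0146.

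Cbs was low and scattered. It had 22, 65 and 85 counts in KO, or 1.59, 4.33 and 6.70 CPM, and 35, 9 and 3 counts in WT, or 3.51, 0.838 and 0.231 CPM. The groups overlapped, as KO replicate 1 lay below WT replicate 1. The log2 fold change of 1.47 had a 95% interval of -0.82 to 3.75 (edgeR, adjusted p = 0.447), so a fall, no difference and a rise larger than that of Slc3a2 all lay within it.

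Cth and Cbs are abundant in liver cells, which surround HSCs in this organ. The summed level of 12 hepatoblast markers was 105, 91.1 and 165 CPM in KO replicates 1 to 3 and 225, 180 and 234 CPM in WT replicates 1 to 3. It was lower in every KO library than in any WT library. Most of this sum came from Dlk1, Hnf4a and Trf. Their means were 43.7, 33.0 and 20.1 CPM in KO and 66.3, 38.8 and 54.3 CPM in WT. Albumin (Alb), the most typical liver transcript, stood at 2.88, 8.12 and 19.8 CPM in KO and at 30.6, 9.50 and 17.3 CPM in WT. There the groups overlapped, as KO replicate 3 lay above WT replicates 2 and 3. Albumin was highest in WT replicate 1, which was also the WT library with the most Cbs and the only one with Cth, and the part of liver cells in those counts was not tested.

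Glutathione is made in successive steps. Glutamate-cysteine ligase, the rate-limiting enzyme, consists of a catalytic subunit (Gclc) and a modifier subunit (Gclm) that raises its activity, and glutathione synthetase (Gss) adds glycine. Gclc stood at 44.5, 36.3 and 40.1 CPM in KO and at 39.8, 36.4 and 31.1 CPM in WT. The groups overlapped, and the log2 fold change was 0.17 with a 95% interval of -0.28 to 0.63 (edgeR, adjusted p = 0.687). Gclm stood at 31.4, 33.6 and 30.6 CPM in KO and at 34.4, 33.8 and 39.7 CPM in WT. Its KO libraries were all lower than its WT libraries but by little, and the log2 fold change was -0.18 with a 95% interval of -0.65 to 0.30 (edgeR, adjusted p = 0.694). For both subunits the upper bound of the interval was below 1 on the log2 scale, less than the lower bound of 3.04 for Slc7a11.

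Gss had the largest difference among the synthesis genes and the only one with a lower mean by more than 0.5 on the log2 scale. It stood at 9.88, 14.1 and 16.7 CPM in KO and at 28.4, 16.3 and 22.9 CPM in WT, and KO replicate 3 overlapped WT replicate 2. The log2 fold change was -0.73 with a 95% interval of -1.44 to -0.02 (edgeR, unadjusted p = 0.0434, adjusted p = 0.183), which did not pass the threshold over all genes. It was -0.92 to -0.53 without any 1 library, with an adjusted p of at least 0.126. In the GENCODE M21 annotation, exons of Gss overlap those of genes on the opposite strand, Acss2 by 13 bases, Gssos1 by 73 and Gssos2 by 117. Gssos1 and Gssos2 are not among the genes counted. The sources used here give no strand setting for the counting.

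Glutathione reductase (Gsr) returns oxidised glutathione to its reduced form with NADPH. Its level was 108, 71.6 and 59.4 CPM in KO and 57.1, 77.5 and 81.6 CPM in WT. KO replicate 1 was the highest library and the other KO libraries lay within the range of WT. The log2 fold change was 0.15 with a 95% interval of -0.29 to 0.58 (edgeR, adjusted p = 0.728), and it was -0.14 without KO replicate 1, so no direction can be given.

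Breakdown inside the cell is carried out by gamma-glutamylcyclotransferases, of which CHAC1 is known to be induced by stress and CHAC2 to act slowly and steadily. Chac1 had 330, 242 and 354 counts in KO, or 23.8, 16.1 and 27.9 CPM, and 0, 19 and 0 counts in WT, or 1.77 CPM in WT replicate 2. No KO library overlapped a WT library. The log2 fold change was 5.26 (SE 1.26, 95% interval 2.24 to 8.29), with an adjusted p of 0.0450 (edgeR) that lay just under the threshold. Its call was lost without KO replicate 1, 2 or 3 (edgeR, adjusted p = 0.108, 0.129 and 0.107) and with DESeq2 (adjusted p = 0.0636). With all libraries the ratio of mean CPM, KO over WT, was 38.3. WT replicate 2 was the only WT library with counts. Without it, the mean in KO was at least 173-fold higher than a floor of 3 counts over the other WT libraries, a bound for that set only.

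Chac2 did not share this pattern. It stood at 6.71, 7.86 and 7.41 CPM in KO and at 18.2, 5.96 and 5.63 CPM in WT, where WT replicate 1 was far above the other 5 libraries. The log2 fold change was -0.44 with a 95% interval of -1.55 to 0.67 (edgeR, adjusted p = 0.673), and it was 0.34 without WT replicate 1, so its direction rests on that library. Per gene length, on the deposited RPKM scale, Chac1 made up 58.4%, 47.3% and 57.2% of the sum of both genes in KO and 0%, 11.6% and 0% in WT.

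**Figure D2:**
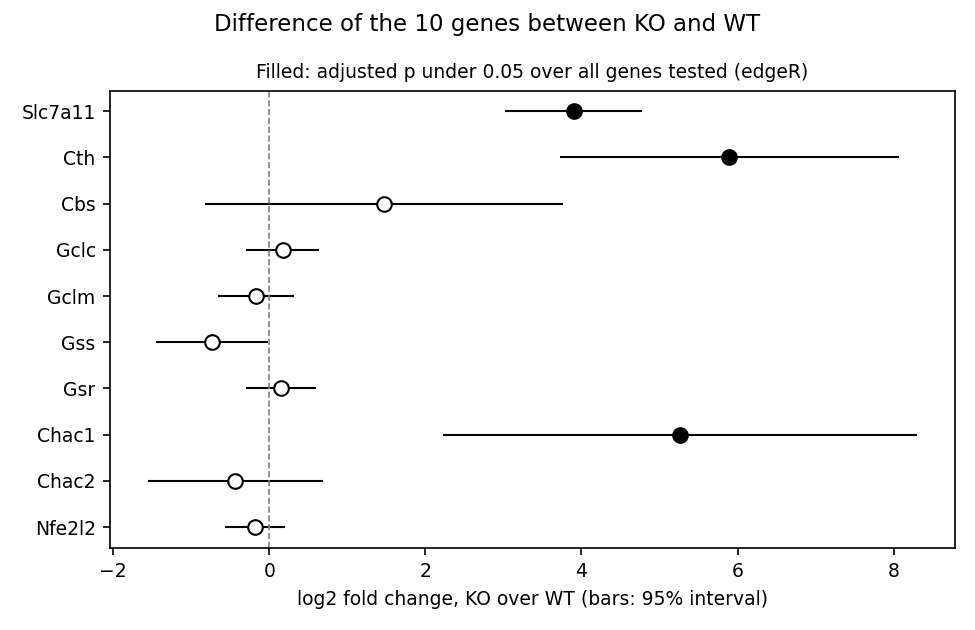
Log2 fold change of KO over WT (horizontal axis) for each gene, with 95% intervals from edgeR, filled where the adjusted p is under 0.05. The intervals of Slc7a11, Cth and Chac1 lie above 2 on the log2 scale, and those of the other 7 genes include 0 or, for Gss, end at -0.02.

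Grouped by step, import and transsulfuration were set against synthesis and breakdown. The sum of Slc7a11, Cth and Cbs was 43.2, 60.2 and 47.6 CPM in KO and 7.22, 2.14 and 1.93 CPM in WT, a mean of 50.3 ± 8.81 CPM in KO and 3.76 ± 2.99 CPM in WT (SD, n = 3 each). The sum of Gclc, Gclm, Gss and Gsr was 194, 156 and 147 CPM in KO and 160, 164 and 175 CPM in WT, a mean of 165 ± 25.1 CPM in KO and 166 ± 8.10 CPM in WT (SD, n = 3 each). The first sum thus differed between the groups by far more than its spread, and the second by less than its spread. The sum of Chac1 and Chac2 was 30.5, 24.0 and 35.3 CPM in KO and 18.2, 7.73 and 5.63 CPM in WT. Chac1 gave more of these counts in every KO library, and Chac2 in every WT library. CPM are not divided by gene length, and on the RPKM scale Chac1 was the smaller part in KO replicate 2, at 47.3%. These sums are descriptions with no test, since the genes in them were chosen with results known.

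**Figure D3:**
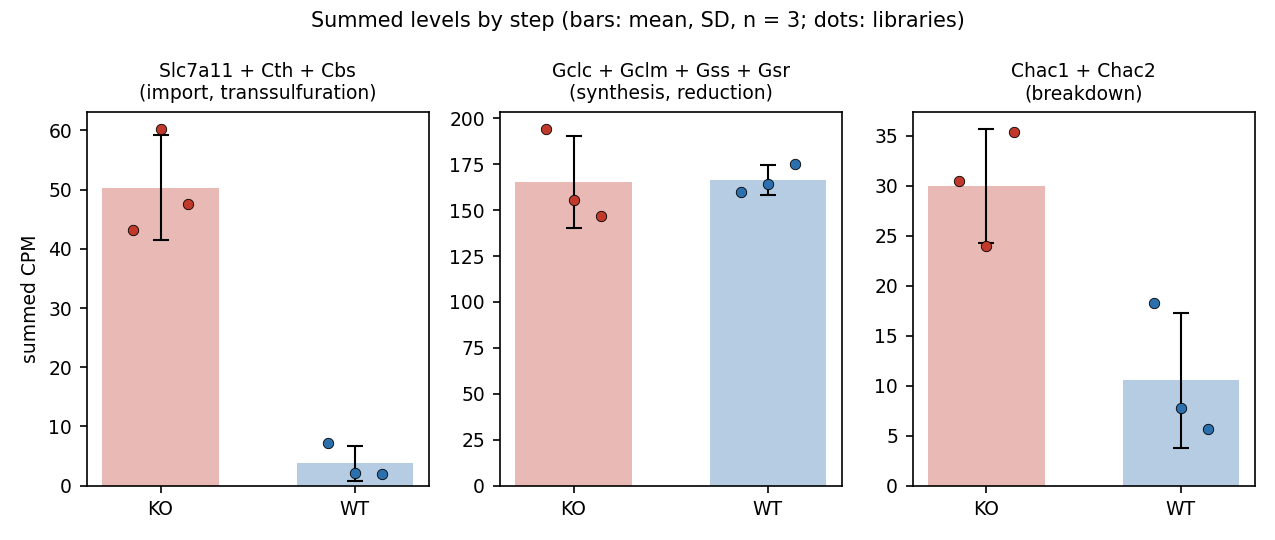
Summed CPM of the genes of each step (vertical axes from 0, with their own scales) in KO and WT libraries, with bars at the mean, error bars of 1 SD over 3 libraries and a dot per library. The sum of import and transsulfuration genes is 50.3 CPM in KO and 3.76 CPM in WT, and that of synthesis and reduction genes 165 CPM in KO and 166 CPM in WT.

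The order of the genes by level was read from the RPKM table, whose values the authors had divided by gene length and by library size. In KO, Gsr was highest at 26.6 ± 11.5 RPKM, followed by Nfe2l2 at 21.4 ± 3.30, Gclm at 17.5 ± 2.74, Chac1 at 13.5 ± 3.48, Cth at 12.3 ± 6.28, Chac2 at 11.05 ± 0.862 and Gclc at 10.6 ± 0.972 RPKM (SD, n = 3). Each of these 7 genes overlapped its neighbour in this order. Gss at 5.67 ± 1.89 and Slc7a11 at 4.93 ± 0.382 RPKM came next and overlapped each other, and Cbs was lowest at 1.38 ± 0.948 RPKM (SD, n = 3). In WT, the order began with the same genes, Gsr at 26.1 ± 4.37, Nfe2l2 at 24.1 ± 2.83 and Gclm at 20.9 ± 2.08 RPKM, followed by Chac2 at 13.8 ± 9.72, Gss at 9.60 ± 2.57 and Gclc at 9.38 ± 1.17 RPKM (SD, n = 3). Cbs, Chac1, Slc7a11 and Cth were all below 1 RPKM on average in WT, overlapped each other and were separated from Gclc. Cth and Chac1 in KO therefore stood among the synthesis genes, where in WT they were below all of them. The length implied by counts and RPKM of Gsr was 2650 to 4246 bases across libraries, so its place in the order is less certain than that of Gclc, at 3710 to 3935 bases. It also varied for Gclm (1630 to 2247 bases) and Slc7a11 (5274 to 6807 bases). The RPKM thus do not follow from the counts by 1 length per gene, which also limits the RPKM ratios and shares given above.

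Nfe2l2, the gene of the antioxidant regulator NRF2, which is controlled mainly through the stability of the protein, stood at 55.5, 58.9 and 70.8 CPM in KO and at 67.8, 64.1 and 78.0 CPM in WT. The groups overlapped, and the log2 fold change was -0.18 with a 95% interval of -0.55 to 0.19 (edgeR, adjusted p = 0.584). Keap1, which marks NRF2 for degradation, stood at 59.6 ± 6.24 CPM in KO and 56.1 ± 6.87 CPM in WT, and Bach1, a repressor at the same elements, at 78.5 ± 0.381 CPM in KO and 101 ± 12.0 CPM in WT (SD, n = 3 each). Neither passed (edgeR, adjusted p = 0.830 and 0.143).

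Of 25 tested genes of a list of NRF2 targets and regulators, 1 rose and 4 fell and 20 did not pass, where 6.41% of all genes tested were higher and 4.99% lower. Its members had a median log2 fold change of -0.34, against -0.02 over all genes tested. The lower genes were Fth1 (ferritin heavy chain, iron storage) at -0.81, Blvrb (biliverdin reductase B) at -1.92, Prdx1 (a peroxiredoxin) at -0.74 and G6pdx (the first NADPH-producing enzyme of the pentose phosphate pathway, named after its values were seen) at -0.65 on the log2 scale (edgeR, adjusted p = 0.000108, 0.00159, 0.00222 and 0.0356). The call of Fth1 was lost with limma on log2(RPKM + 1) or log2(RPKM + 0.1), where its log2 fold change was -0.34 (adjusted p = 0.148), and 2 genes of the list were then lower. The call of G6pdx was lost without any 1 of the 6 libraries, with an adjusted p of up to 0.148. The higher gene was Nfe2l1, a relative of Nfe2l2, at 0.60 (edgeR, adjusted p = 0.0175). Its call was lost without KO replicate 2, KO replicate 3 or WT replicate 1 (adjusted p = 0.155, 0.0502 and 0.0797). It was also lost with limma on log2(RPKM + 1) or log2(RPKM + 0.1) (adjusted p of up to 0.113). Srxn1, the sulfiredoxin gene, had a mean of 6.22 ± 0.790 CPM in KO and 14.1 ± 2.44 CPM in WT (SD, n = 3 each) with no overlap, and it did not pass (edgeR, adjusted p = 0.0899). Txnrd1 and Nqo1, thioredoxin reductase and a quinone reductase, did not pass either, with log2 fold changes of -0.12 and -1.43 (edgeR, adjusted p = 0.610 and 0.457).

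Several of these genes are also abundant in macrophages and red cell precursors. Hmox1, haem oxygenase, stood at 12.8, 7.39 and 5.99 CPM in KO and at 11.7, 6.42 and 157 CPM in WT, and the high library was WT replicate 3, the one with 899 CPM of macrophage markers. Its log2 fold change was -2.74 with all libraries and -0.05 without WT replicate 3 (edgeR, adjusted p = 0.367 and 0.976). The summed level of 11 erythroid markers was 84.3 to 139 CPM in KO and 277 to 563 CPM in WT. Of the 8 tested, 7 had a negative log2 fold change and 1, Epor, a positive one. Hba-a1 and Hbb-b1 had 0 counts in all libraries, although Hbb-b1 had 94.2 ± 124 RPKM in KO and 131 ± 210 RPKM in WT (SD, n = 3 each). The difference in the sum had the same direction as Blvrb and Fth1, and its part in their fall was not tested.

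Several other genes that supply cysteine and its precursors rose with Slc7a11, but not all. Of 6 tested genes of uptake, 4 rose and 0 fell (edgeR), where 6.41% of all genes tested were higher and 4.99% lower. The median log2 fold change was 1.04, against -0.02 over all genes tested. DESeq2 and limma-voom also gave 4 and 0. Slc1a4, a carrier of small neutral amino acids that include cysteine and serine, had a mean of 54.1 ± 5.69 CPM in KO and 10.2 ± 0.969 CPM in WT (SD, n = 3 each), a log2 fold change of 2.41 (SE 0.25, edgeR adjusted p = 2.36e-06). Slc1a5, a glutamine carrier of the same family, was higher by 0.95 on the log2 scale (SE 0.19, edgeR adjusted p = 0.00209). Slc1a1, a glutamate carrier that also takes up cysteine, stood at 9.01, 20.9 and 8.99 CPM in KO and at 2.91, 2.23 and 0.154 CPM in WT. Its log2 fold change of 2.89 (edgeR, adjusted p = 0.0171) lost its call without KO replicate 2 (adjusted p = 0.164). The call was also lost with limma on log2(RPKM + 0.1) (adjusted p = 0.0638). Ctns and Slc38a2 did not pass, with log2 fold changes of -1.02 and 0.17 (edgeR, adjusted p = 0.249 and 0.400).

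The methionine cycle makes the homocysteine that Cbs uses. Of its 12 tested genes, 0 rose and 1 fell (edgeR), near the shares over all genes tested, 6.41% higher and 4.99% lower. At an unadjusted p under 0.05, 1 was higher and 2 lower, and DESeq2 gave 0 and 1. The median log2 fold change was -0.05, against -0.02 over all genes tested. The lower gene was Mat2a, which makes S-adenosylmethionine. It stood at 106, 134 and 109 CPM in KO and at 224, 190 and 195 CPM in WT with no overlap, a log2 fold change of -0.80 (SE 0.13, edgeR adjusted p = 0.000421). Ahcy, which releases homocysteine, had a log2 fold change of -0.36 (SE 0.14, edgeR adjusted p = 0.122), and without KO replicate 1 it was -0.53 and passed (adjusted p = 0.0309).

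For genes past glutathione itself, counts are given beside the shares over all genes tested, 6.41% higher and 4.99% lower. Of 11 tested genes of cysteine breakdown and sulfide metabolism, 0 were called (edgeR), with 1 higher at an unadjusted p under 0.05 and 0 with DESeq2 or limma-voom. Of 7 tested genes of hydrolysis outside the cell and recycling of its products, 0 were called (edgeR), also 0 at an unadjusted p under 0.05 and with DESeq2 or limma-voom. Among these is Ggct, the gamma-glutamylcyclotransferase that follows in the recycling cycle, at 3.37 CPM in KO and 3.92 CPM in WT on average. Of 28 tested genes of glutathione use and transport, 0 rose and 1 fell (edgeR), close to the background share of lower genes, with 0 and 4 at an unadjusted p under 0.05 and 0 and 1 with DESeq2 or limma-voom. The lower gene was Gsto1, a glutathione transferase, at -0.72 on the log2 scale (edgeR, adjusted p = 0.0298). Its call was lost without KO replicate 2, KO replicate 3 or WT replicate 1 (adjusted p = 0.141, 0.153 and 0.191). It was also lost with limma on log2(RPKM + 1) or log2(RPKM + 0.1) (adjusted p of up to 0.0937). Glutathione transferases have near-identical copies, and the sources used here do not say how reads with several matches were counted.

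**Figure D4:**
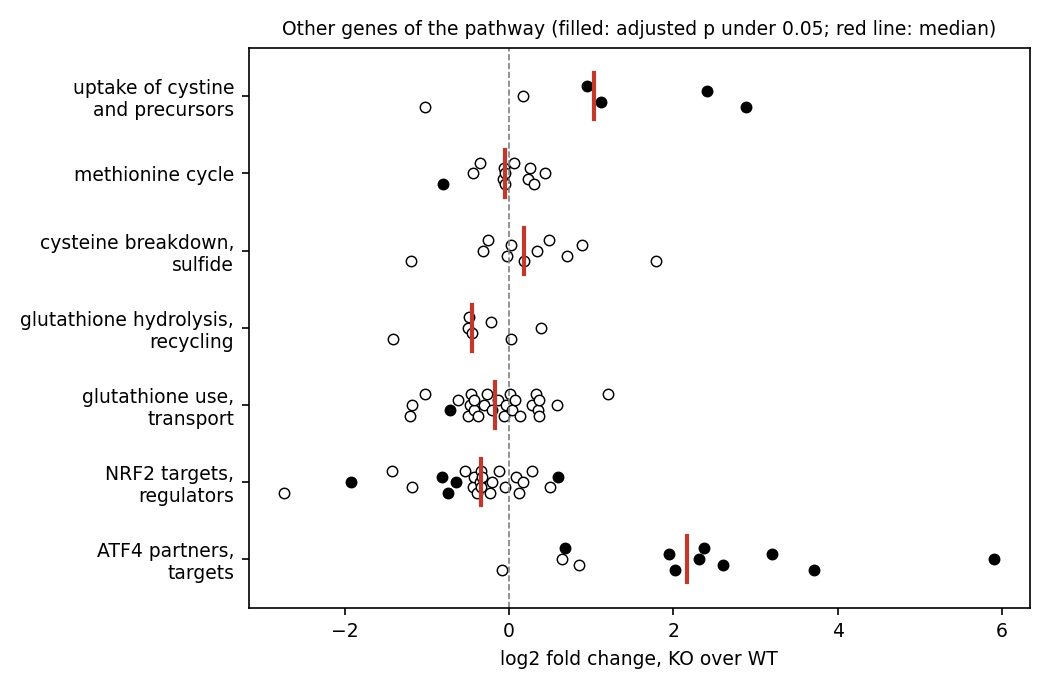
Log2 fold change of KO over WT (horizontal axis) of every tested gene in the 7 lists of related genes (rows), filled where the adjusted p is under 0.05 in edgeR, with a red line at each list's median. The median is 1.04 for uptake and 2.17 for ATF4 partners and targets, and the other 5 lists have medians between -0.45 and 0.18.

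Genes nearest to Slc7a11 in level across the libraries were sought by the root mean square difference of log2(CPM + 0.5) over the 6 libraries, after each gene's mean was subtracted. The 5 nearest of the genes tested were Bcat1, a branched-chain aminotransferase gene (difference 0.276), Adm2, which encodes the peptide adrenomedullin 2 (0.301), Trib3, a pseudokinase gene of the stress response (0.404), Atf5, a relative of Atf4 (0.428), and Igflr1, a receptor gene (0.465). Adm2 and Igflr1 had no counts in any WT library, so their WT values on that scale, and with them their closeness to Slc7a11, are set by the added 0.5 and do not show a like pattern. Their means in KO, 4.53 and 5.001 CPM, were at least 50.9-fold and 56.2-fold higher than a floor of 3 counts over the WT group, whereas Slc7a11 was 14.9-fold higher. Atf4 itself stood at 348, 370 and 341 CPM in KO and at 86.9, 103 and 85.2 CPM in WT (log2 fold change 1.95, SE 0.12, edgeR adjusted p = 4.11e-09). A list of 12 ATF4 partners and targets held none of the 10 genes. Of these 12, 9 rose and 0 fell (edgeR), where 6.41% of all genes tested were higher and 4.99% lower. DESeq2 gave 10 and 0. The list was chosen with earlier results of these data known and holds Atf4, Trib3 and Atf5 themselves, so the count is a description. Asns, asparagine synthetase, was among the 9 at 2.02 on the log2 scale (SE 0.14, edgeR adjusted p = 9.59e-09).

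The 5 genes nearest to Nfe2l2 by the same measure were Eng, which encodes the endothelial and HSC receptor endoglin, Plscr3, Tmem9, 2010107E04Rik and Tmem237, with differences of 0.0539 to 0.0719. None of them passed the threshold (edgeR, adjusted p = 0.473, 0.455, 0.576, 0.755 and 0.693). As they were picked for closeness to Nfe2l2, which did not pass, in the same libraries, this was nearly set by the choice and is a description.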

How the data were processed

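Total RNA of fetal liver HSCs was sequenced in 3 KO and 3 WT libraries, made with a stranded low-input total RNA kit per the labels' protocols. The authors deposited raw read counts per gene symbol and RPKM values. TopHat, Cufflinks and the mm9 build are named per the submitters' processing notes. The sources used here give no versions, counter, annotation or strand setting.

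Counts were tested by the quasi-likelihood test of edgeR 4.0.16 (R 4.3.3) with robust estimates, TMM factors, the filterByExpr filter and no term besides group, with Benjamini-Hochberg adjustment over 12204 genes and a threshold of 0.05. The SE is the size of the log2 fold change over the root of F. CPM use TMM library sizes. The script was tested on simulated data. DESeq2 1.42.0 and limma 3.58.1 served as alternatives, limma also on log2(deposited RPKM + 1) and log2(RPKM + 0.1). No 2 replicates agreed within counting noise (chi-square per degree of freedom 21.9 to 44.4). Reads are not independent molecules, so floors of 3 counts cover counting error only. Genes, lists, motifs and tests were chosen with earlier results of these data known. Named beside the 10 genes were fixed regulators and neighbours (Keap1, Bach1, Nqo1, Hmox1, Srxn1, Txnrd1, Slc3a2, Mat2a, Ahcy, Atf4), up to 4 called genes per list by adjusted p, and the 5 genes nearest to Slc7a11 and to Nfe2l2.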

Additional observations from a re-analysis of the deposited data

How the results depend on the processing

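Slc7a11 and Cth kept their direction and passed the threshold under all 14 alternatives run (log2 fold changes 2.16 to 4.25 and 3.40 to 10.82). The rise of Chac1 kept its direction but did not pass with DESeq2 (5.26) or with the replicate number as a block (5.96), and ranged from 4.63 to 11.19 without 1 library. The values of 11.19 for Chac1 and 10.82 for Cth arise where the remaining WT libraries have no counts, and depend on the prior count. Gsr changed sign with limma on log2(RPKM + 1) (-0.054) and log2(RPKM + 0.1) (-0.060), and ranged from -0.14 to 0.32 without 1 library. Chac2 ranged from -0.72 to 0.34 and Keap1 from -0.0070 to 0.16 without 1 library. The cause was not tested. Cbs, Gclc, Gclm, Gss and Nfe2l2 kept their direction and did not pass under any of the 14. Of all genes, 583 (348 higher, 235 lower) were called with limma on log2(RPKM + 1) and 560 (337 higher, 223 lower) with log2(RPKM + 0.1), against 1391 (782 higher, 609 lower) in edgeR. Without 1 library the counts were 712 to 1263 in all, 448 to 717 higher and 264 to 546 lower. With the replicate block (Chac1 adjusted p = 0.102) 1341 genes and 2 of the 10 were called. Deviations of same-numbered KO and WT libraries from their group means correlated at -0.00343 to 0.0224 across genes, none over 0.1. KO replicates 1 and 2 correlated most with the WT library of their own number (0.0224 and 0.0117) and KO replicate 3 with WT replicate 2 (0.0129). All are near 0, so the libraries are taken to share only a number. Of 419 values of 30 other named genes, 22 lost and 2 gained a call. With 9 or 19 WT counts, the size of the rises in Cth and Chac1 is poorly bounded.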
